A study of Mus musculus with 2 samples.

Results

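RNA levels of 83 genes of primary and motile cilia were read in the hippocampus of young mice. The genes were chosen by symbol alone, from those with at least 1 protein_coding transcript among the 55536 annotated genes of the tables. The motile class held 58 genes: 15 axonemal dynein heavy chains (Dnah), 29 cilia and flagella associated proteins (Cfap), 8 radial spoke genes (Rsph), 5 tektins (Tekt) and Foxj1. The primary class held 25 genes: 14 of intraflagellar transport (Ift), 8 Bardet-Biedl syndrome genes (Bbs), Arl13b, Arl3 and Tulp3. The class follows the name of the family and not a measurement, so a gene called motile here need not act in motile cilia only.

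The samples were total RNA of hippocampus (labelled as a layer of it) from female B6CASTF1/J mice aged 25 days, first-generation hybrids of the C57BL/6 and CAST strains. They form a single untreated group of 2 libraries, each made with ERCC spike-ins from 300 ng of input RNA, and no second group exists to compare them with. The labels give each replicate a biosample of its own but the same donor entry for both, so the spread between them may be technical. Replicate 1 held 34919989 expected counts and replicate 2 held 41206890. Against the tissue label, 7 markers of dentate granule cells and of fields CA1, CA2 and CA3, picked with their values known, lay between 34.4 and 89.6 TPM in replicate 1 and between 30.7 and 78.0 in replicate 2. None of them was absent. Markers of excitatory neurons (5 of 5) and astrocytes (6 of 6) were also at 1 TPM or more, which any forebrain tissue would show. TPM, the unit of the levels below, is taken per length of transcript and so can be set side by side between genes. Values with ± are means with SD over the 2 libraries (n = 2), and a gene called highest or lowest of a list is so by this mean unless a library is named.

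A cilium is a microtubule rod, the axoneme, that grows from a centriole and is covered by cell membrane. Primary cilia are single, do not beat, and carry receptors; most neurons and astrocytes of the hippocampus have one. Intraflagellar transport moves cargo along the axoneme, with the IFT-B complex driven outward by kinesin and the IFT-A complex driven back by dynein, while the BBSome carries membrane proteins with them. Motile cilia add dynein arms, radial spokes, a central pair and nexin links, and in the brain they stand in tufts on the ependymal cells that line the ventricles. Foxj1 and the RFX factors switch on the genes of motile cilia, and RFX factors, which bind a motif called the X-box, also act on many genes of primary cilia.

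Both classes carried X-box letters in their promoters, and the windows below are shown because this motif is shared across the classes while the RNA levels of the genes were far apart. Each is RefSeq sequence of GRCm38.p6 on the strand of the gene, with the letters that match the motif in capitals. The search read GTNNCC followed by GNAAC with any 3 bases in between, on both strands, from 250 bases before to 50 bases after each annotated start.
Bbs1, chr19:4906605-4906634: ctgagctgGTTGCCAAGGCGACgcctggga
Bbs4, chr9:59353464-59353493: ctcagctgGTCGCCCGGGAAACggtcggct
Bbs7, chr3:36613489-36613518: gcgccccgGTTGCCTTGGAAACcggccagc
Ift22, chr5:136908109-136908138: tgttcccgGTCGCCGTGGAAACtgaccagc
Ift57, chr16:49699199-49699228: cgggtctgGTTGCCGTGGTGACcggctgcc
Cfap298, chr16:90935016-90935045: gggttttgGTTGCCCGGGCAACagctactt
Cfap44, chr16:44394764-44394793: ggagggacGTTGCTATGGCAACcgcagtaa
Cfap45, chr1:172521103-172521132: gttcttggGTTGCTATGGTAACgcgtcagc
Cfap61, chr2:145934768-145934797: gccgcgtcGTTTCCTTAGCAACtgtgtgcg
Cfap206, chr4:34730208-34730237: cgcgttccGTTTCCACGGTTACgcgactgc

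The windows of Cfap298 and Bbs7 matched on both strands at the same place. Promoters were matched by symbol for 68 of the 83 genes. The letters were in 5 of 22 primary promoters (22.7%) and in 7 of 53 promoters of motile genes (13.2%), against 476 of 21263 promoters of protein-coding genes (2.24%). Ift22 and Tekt4 each held a second site, and Dnah17 and Tekt4 were the other motile genes with one. The forkhead letters GTAAACA, of the kind that FOX factors bind, were found in 4 of 53 motile promoters (7.55%), those of Cfap20, Cfap43, Dnah17 and Tekt3. They were in 0 of 22 primary promoters and in 3.01% of those of protein-coding genes, and no forkhead match overlapped an X-box match. A match in these windows is a match of letters and was not measured as binding.

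Genes with the X-box letters ranged over nearly the whole span of levels. In the primary class the 5 genes with the letters lay between 6.05 TPM for Bbs7 and 32.7 for Ift22, with a median of 17.4, against a median of 8.84 for the 17 matched genes without them. In the motile class the 7 genes with them ran from 0.005 TPM for Dnah17 to 16.7 for Cfap298, with a median of 0.885, against 0.57 for the 39 without. These medians describe few genes and overlapped widely.

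All 25 primary genes were detected at 1 TPM or more in both libraries, and 23 of the 58 motile genes (39.7%) were. Over all 22015 nuclear protein-coding genes the share was 57.6%. Of the other motile genes, 4 passed 1 TPM in a single library and 31 were under it in both. The median level was 10.4 TPM in replicate 1 and 10.6 in replicate 2 for the primary class, and 0.695 and 0.76 for the motile class. The primary median therefore stood above that of nuclear protein-coding genes, 3.34 and 3.05 TPM, and the motile median below it.

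The ratio of the class medians was 14.96 in replicate 1 and 13.9 in replicate 2. The mean of these 2 ratios was 14.4. Taken in the same way, it was 13.1 in the second deposited quantification, described below. It was 27.9 when only TPM on protein_coding transcripts was counted. The lowest primary gene, Bbs10 in replicate 1 and Bbs12 in replicate 2, stood above 42 and 41 of the 58 motile genes. Sums were less far apart than medians, at 378 ± 11.3 TPM for the 25 primary genes and 207 ± 7.42 for the 58 motile genes. The motile sum is taken over more genes, and a few of these held most of it. The top 6 motile genes took 63.2% of the motile sum in replicate 1 and 65.2% in replicate 2. In RNA of a whole tissue, fewer cells of a type and less RNA per cell cannot be told apart.

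**Figure D1:**
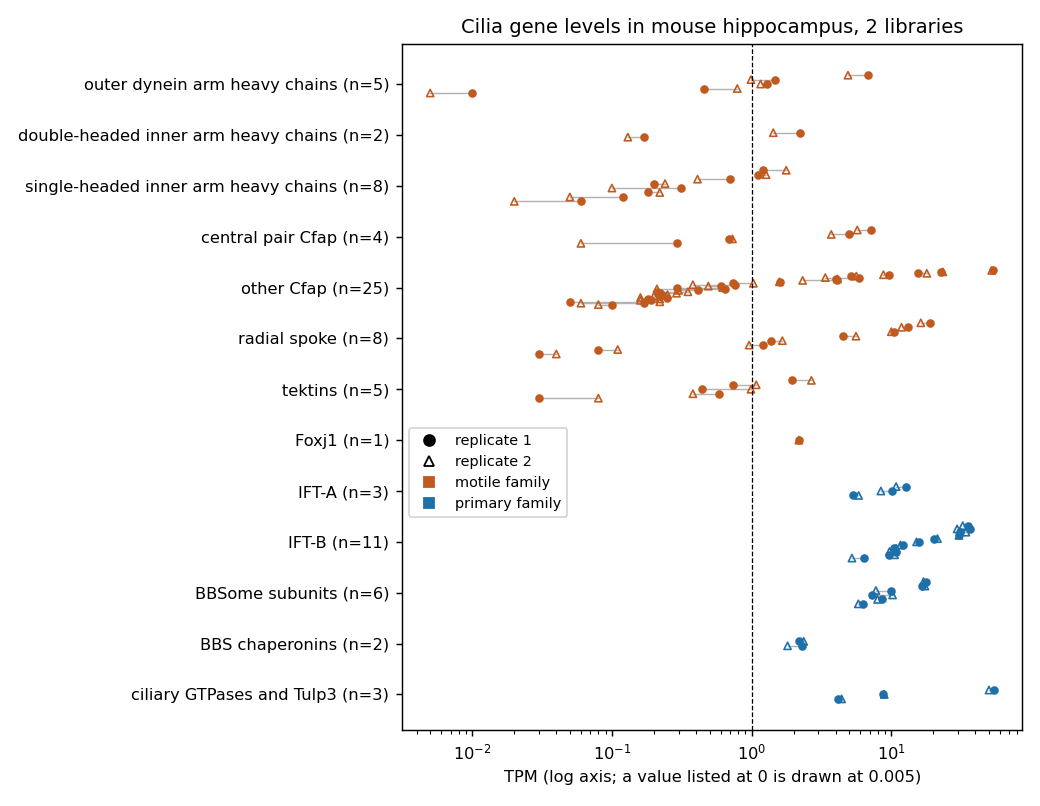
TPM of each of the 83 genes (log axis) in replicate 1 (filled circles) and replicate 2 (open triangles), grouped by role, with motile families in orange and primary families in blue. All primary genes lie right of the dashed line at 1 TPM in both libraries, while the motile roles reach from 53.8 TPM (Cfap36) down to values near 0.

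Among the transport genes, the 11 genes of IFT-B were all present, at 219.7 TPM in sum in replicate 1 and 211.4 in replicate 2. Ift20 (ENSMUSG00000001105.15, chr11:78536361-78541737), a small subunit also found at the Golgi, was at 35.6 and 32.5 TPM. Ift172 (ENSMUSG00000038564.11, chr5:31253277-31291116), the largest subunit, was at 36.9 and 29.6 TPM. Ift22, a Rab-like GTPase subunit, was at 31.1 and 34.2 TPM, and Ift46 at 30.6 and 30.5. These 4 led the family, and their order changed from one library to the other, so they are not ranked among themselves. On protein_coding transcripts alone Ift172 was at 16.6 TPM in both libraries, below Ift57 at 20.2 and 21.1, and so outside the top 4. In a second deposited quantification, described below, Ift172 had 55.9% of a mean of 55.7 TPM on such transcripts. Ift46 had 47.7% of 57.2 TPM and so came below Ift172 there. The place of Ift172 outside the top 4 thus depends on the quantification. The lowest of IFT-B was Ift88, whose loss is the classic way to remove cilia in mice, at 6.42 and 5.23 TPM.

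The 3 IFT-A genes were lower than the leaders of IFT-B. Ift122 was at 12.7 and 10.8 TPM and Ift140 at 10.1 and 8.43. Ift43 was the lowest of all the Ift genes, with 5.36 and 5.84 TPM from 87 and 113 counts. Its values overlapped those of Ift88, so the place of either at the foot of the family is not fixed. The remaining IFT-B genes fell between 9.59 TPM (Ift27, replicate 1) and 21.4 (Ift57, replicate 2).

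All 6 BBSome subunits in the class were detected, and 2 of them stood apart from the rest by total TPM. Bbs1 (ENSMUSG00000006464.9, chr19:4886878-4906628), the subunit that meets Arl6 at the membrane, was at 17.8 and 17.0 TPM. Bbs4 (ENSMUSG00000025235.8, chr9:59321990-59353508) was at 16.6 and 17.4. These gene totals did not differ beyond their spread, but on protein_coding transcripts alone Bbs1 had a mean of 9.09 TPM and Bbs4 of 16.5. By that measure only Bbs4 stood apart. Bbs5, Bbs9, Bbs2 and Bbs7 followed at 8.84 ± 1.52, 8.76 ± 2.07, 8.28 ± 0.417 and 6.05 ± 0.346 TPM. The chaperonin-like genes Bbs10 and Bbs12, which help to assemble the BBSome, were the lowest primary genes. Bbs10 was at 2.20 and 2.36 TPM and Bbs12 at 2.28 and 1.81, with no order between them that held in both libraries.

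The ciliary GTPases differed widely from each other. Arl3 (ENSMUSG00000025035.9, chr19:46531096-46573198), which releases lipid-modified cargo inside the cilium, was the highest primary gene at 54.6 and 50.1 TPM. Arl13b (ENSMUSG00000022911.11, chr16:62793685-62847040), the membrane GTPase that activates Arl3 and is used to stain cilia, was at 4.15 and 4.41. Tulp3, the adapter that brings G-protein-coupled receptors into cilia, was at 8.66 and 8.91. Arl3 thus lay about an order of magnitude above its activator in both libraries.

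In the motile class the highest genes were Cfap genes. Cfap36 (ENSMUSG00000020462.14, chr11:29221532-29247409), known to bind Arl3, was at 53.8 and 52.4 TPM. Its 53.1 ± 0.997 did not differ beyond the spread from the 52.3 ± 3.21 of Arl3, and together they were the highest of the 83. Cfap20 (ENSMUSG00000031796.7, chr8:95420249-95434869), of the seam of the axonemal doublets, was at 22.6 and 23.4 TPM. Cfap298, needed for dynein arm assembly, was at 15.4 and 18.0, and Cfap97 at 9.69 and 8.79. These 4 genes were the top of the family in both libraries, and the whole family summed to 138 ± 4.09 TPM.

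The Cfap genes of the central pair and of other axonemal parts came lower. Cfap54, of the central pair, was at 7.16 and 5.71 TPM, and Cfap69 at 5.11 and 5.62. The microtubule inner protein gene Cfap45 was at 1.61 and 1.58. Of the 29 Cfap genes, 17 were under 1 TPM in both libraries. The lowest by the mean was Cfap99, at 0.10 and 0.08 TPM with 5 counts in each library, though other Cfap genes were lower in each single library. Cfap77 was just as close to the floor, with 2 counts in replicate 1 and 7 in replicate 2.

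Of the radial spoke genes, 5 of 8 were detected in both libraries. Rsph3a (ENSMUSG00000073471.3, chr17:7945614-7979824), for a protein of the spoke stalk, was listed at 19.0 and 16.3 TPM. Its near copy Rsph3b (ENSMUSG00000023806.10, chr17:6904413-6948682) was at 13.1 and 11.9. Of the 31-base words in Rsph3a transcripts, 59.5% also occurred in another gene, nearly all of them in Rsph3b, and for Rsph3b the share was 68.5%. The split of reads between these copies is therefore uncertain, and so is their order. On protein_coding transcripts alone Rsph3a had a mean of 2.84 TPM and Rsph3b of 10.7. Rsph3b also had more counts, 496 and 575 against 348 and 381.

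The spoke head genes could be told apart. Rsph9 was at 10.5 and 10.0 TPM, Rsph1 at 4.53 and 5.59, and Rsph4a at 1.37 and 1.66. Rsph6a, the paralogue of Rsph4a known from sperm, was the lowest of the family, at 0.03 and 0.04 TPM from 1 and 3 counts. With 1 count in replicate 1 its level there is under the floor of 3 counts, which equals 0.084 TPM for this gene. Rsph10b was at 1.21 and 0.96 TPM, and its exons overlap those of Pms2 on the same strand.

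Axonemal dynein heavy chains, the motors of the arms, were low apart from one. Dnah9 (ENSMUSG00000056752.16, chr11:65831282-66168551), an outer arm chain, was at 6.82 and 4.90 TPM from 1382 and 1369 counts. Its full-length transcript Dnah9-201, of 13798 bases, took 1094 and 1124 of these counts. Dnah5, the outer arm chain most often mutated in human ciliary dyskinesia, was at 1.28 and 1.16 TPM, all of it on a protein_coding transcript. Dnah11, the other outer arm chain of the airway, was at 0.46 and 0.79.

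Among the inner arm chains, Dnah2 was at 2.22 and 1.43 TPM and Dnah1 at 1.20 and 1.77, so their order reversed between the libraries. On protein_coding transcripts alone Dnah2 was the higher in both, at 1.04 and 0.80 TPM against 0.17 and 0.20. Dnah7a, Dnah7b and Dnah7c were at 1.19 ± 0.113, 0.555 ± 0.205 and 0.22 ± 0.0283 TPM. These copies all lie on chromosome 1, and 54.2%, 40.0% and 61.6% of their 31-base words recurred in another gene, so the levels of single copies are uncertain. The sperm-type outer arm chain Dnah8 was listed at 1.47 and 0.99 TPM, but only 5.01% of that was on protein_coding transcripts. The other sperm-type chain, Dnah17 (ENSMUSG00000033987.16, chr11:118021723-118130634), was lowest of all 83 genes, at 0.01 and 0.00 TPM from 4 counts and 1 count. Of the 15 Dnah genes, 9 were under 1 TPM in both libraries.

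The tektins, filament proteins inside the doublet microtubules, were low as well. Tekt5, a gene known from sperm tails, led them at 1.95 and 2.68 TPM from 80 and 137 counts. Tekt1 was at 0.74 and 1.08, Tekt4 at 0.44 and 0.99, and Tekt2 at 0.58 and 0.38. Tekt3 was last, with 1 count and 4 counts. Foxj1 (ENSMUSG00000034227.7, chr11:116330704-116335399), the master regulator of motile cilia, was at 2.19 and 2.18 TPM from 133 and 165 counts.

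The libraries were close for well-counted members of both classes. Among genes with at least 200 counts over both libraries, 23 motile and 25 primary genes were compared, and 0 of these 48 differed over 2-fold. Over all 12962 annotated genes at that depth 0.825% did. Of the 12099 nuclear protein-coding genes among them, the kind that the members are, only 24 did. Replicate 2 was the lower library for 14 of the 23 motile genes and 15 of the 25 primary genes, against 64.9% of all genes. The median log2 difference, on the log2(TPM + 1) scale, was -0.06 in the motile class, -0.06 in the primary class and -0.07 over all genes. On TMM-scaled counts, used in place of TPM and not divided by length, it was positive for primary genes (0.026) and all genes (0.023). For motile genes it was -0.0030 on that scale, and the TMM factors themselves were 1.002 and 0.998. With 1 library against 1, these ratios have no replicate check.

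The widest gaps among these genes were in the motile class. Cfap44, at 4.08 TPM in replicate 1 and 2.32 in replicate 2, had a ratio of 0.569, and counting error at 95% put it between 0.472 and 0.685. Cfap100 was lower in replicate 2 to a like extent, at 5.91 and 3.37 TPM (0.570, interval 0.456 to 0.712). Dnah1 went the other way with a ratio of 1.48 (1.17 to 1.86). In the primary class the widest were Bbs9, higher in replicate 2 at 1.40 (1.23 to 1.60), and Bbs5, lower at 0.783 (0.649 to 0.945). These intervals cover counting error only and take each library's effective length as given, so a changed mix of transcripts can move a TPM ratio beyond them. Counts were 246 and 219 for Cfap44, 178 and 152 for Cfap100 and 122 and 209 for Dnah1. They were 413 and 556 for Bbs9 and 218 and 241 for Bbs5, before any correction for the greater depth of replicate 2. Cfap100, Bbs9 and Bbs5 stand here as the ends of the range and were picked after their values were seen.

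**Figure D2:**
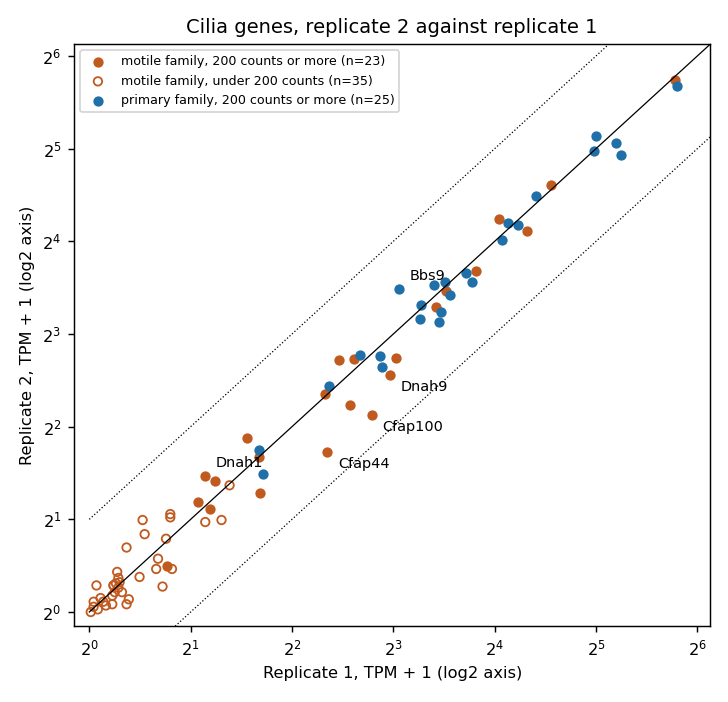
TPM + 1 of each gene in replicate 2 against replicate 1 (log2 axes), motile genes in orange, primary genes in blue, open circles for genes with fewer than 200 counts over both libraries. The solid line marks equal values and the dotted lines a 2-fold difference of TPM + 1; all 48 filled points lie between the dotted lines.

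Part of the RNA of many members lay on transcripts not annotated as protein_coding, a label that does not measure whether a reading frame is complete. The share of a gene's TPM on transcripts annotated as protein_coding had a median of 84.7% over the 25 motile genes with a mean of at least 1 TPM. It was 81.5% over the 25 primary genes, and 90.3% over all nuclear protein-coding genes at that level. The share was under 50% for 5 of the 25 motile genes and 0 of the 25 primary genes, against 9.21% of nuclear protein-coding genes. The lowest primary genes were just above that line, Ift172 at 50.6 ± 7.78% and Bbs1 at 52.3 ± 3.12%. In a second deposited quantification, described below, the primary genes Bbs5 (39.8%), Ift122 (47.1%) and Ift46 (47.7%) were under 50%. There the motile genes Dnah2 (39.4%) and Dnah7a (46.5%) were also under it, while Cfap74 (68.8%) was above. Which genes fall under 50%, and the 0 of the primary class, thus depend on the quantification.

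The 5 motile genes were Dnah8, Dnah1, Rsph3a, Cfap44 and Cfap74. For Dnah1 the share was 12.7 ± 2.03%: the processed transcript Dnah1-202, of 2897 bases, was at 1.03 and 1.57 TPM, and the full-length Dnah1-201 at 0.17 and 0.20. For Rsph3a it was 16.1 ± 0.808%, with the short processed transcript Rsph3a-206 of 688 bases at 10.9 and 11.3 TPM. Counts give a more even picture there, with 154 and 200.3 on Rsph3a-206 and 144 and 143 on the protein_coding Rsph3a-201, since TPM divides by length. Cfap44, a protein that tethers an inner dynein arm, had 32.9 ± 8.08%, and Cfap74, of the central pair, 45.1 ± 1.95%. Dnah8 had its TPM spread over retained-intron and processed transcripts, and its exons overlap an antisense gene, AC165951.2, at 2.40 and 1.03 TPM. Whether reads of that gene enter the Dnah8 level was not tested.

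**Figure D3:**
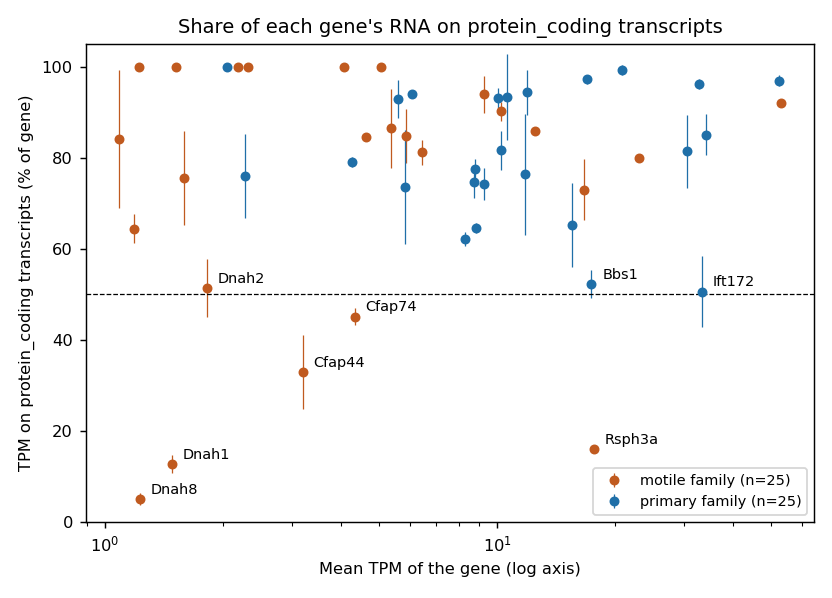
Percent of each gene's TPM on protein_coding transcripts (mean, bars are SD over the 2 libraries) against the gene's mean TPM (log axis), for the 25 motile and 25 primary genes with a mean of at least 1 TPM. Values are those of the first quantification. Below the dashed line at 50% lie 5 motile genes and no primary gene, with Ift172 and Bbs1 just above it.

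Among transcript classes of the primary genes, those with a retained intron had the widest gap in TPM between the libraries. They made up 52.98 TPM, or 13.7% of the primary sum, in replicate 1 and 36.3 TPM, or 9.82%, in replicate 2. That is a ratio of 0.686, close to the 0.666 of the much smaller nonsense_mediated_decay class (6.7 and 4.46 TPM), beside 0.779 for retained-intron transcripts of all nuclear protein-coding genes. The protein_coding transcripts of the primary genes were level between libraries, at 307.3 and 312.7 TPM. In the motile class the retained-intron sum went from 26.1 to 22.8 TPM, a ratio of 0.871. Replicate 2 was thus the library with less retained-intron RNA in both classes and in the background.

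For Ift172 this touches the gene's level directly. Its total went from 36.9 to 29.6 TPM while the protein_coding share went from 45.1% to 56.1%. The 5403-base Ift172-201 itself was at 15.6 and 15.1 TPM. In TPM, the gene's ratio of 0.803 between the libraries (interval 0.759 to 0.849) thus arose mainly outside its main coding transcript. The counts of Ift172 were 2279 and 2676, in libraries of 34919989 and 41206890 expected counts, so they rose about in step with depth. TPM also divides by an effective length that follows the mix of transcripts, and the interval takes that length as given.

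A second deposited quantification, made from reads and summed per gene, gave higher TPM for most genes. The median ratio to the first was 1.70 for motile genes, 1.67 for primary genes and 1.63 for nuclear protein-coding genes, so the shift was common to all. Among the 59 members with a mean of at least 1 TPM in either table, there were 3 that differed over 3-fold, each motile, against 4.1% of nuclear protein-coding genes at that level. A further 2, Cfap53 and Rsph14, differed as much but were under 1 TPM in both tables. Cfap74 was at 14.7 and 13.4 TPM there, and Cfap161 at 0.73 and 1.29 where the first table had 0.21 and 0.35. Dnah17 was at 2.41 and 1.11 TPM, of which 99.2% was on Dnah17-201, a processed transcript of 1361 bases that the first table lists at 0. The low level of Dnah17 thus depends on which table is read.

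Genes of the same machines with other kinds of symbol were read from lists written with earlier results of these data known. Those lists are therefore no independent check of the order of the classes. Lists of primary cilium genes had 49 of 52 genes at 1 TPM or more in both libraries (94.2%), and lists of motile cilium genes had 22 of 50 (44.0%), beside 57.6% of nuclear protein-coding genes. The kinesin-2 genes that drive IFT-B outward were among the highest, with Kifap3 at 76.9 ± 2.14 TPM, Kif3a at 51.7 ± 4.36 and Kif3b at 23.0 ± 0.375. These motors also serve axonal transport. In that list of 18 only Ttc30a2, at 0.15 and 0.11 TPM, was under 1.

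Every gene listed for the BBSome and for the ciliary gate was detected as RNA. The list for the BBSome and chaperonins held 6 further genes, not all of them subunits or chaperonins. Lztfl1 led it at 25.1 ± 1.03 TPM, with Bbip1 at 22.5 ± 1.17, Ttc8 at 17.4 ± 1.72 and Wdpcp lowest at 4.25 ± 0.247. The other list held 18 genes of the transition zone, the gate at the base of the cilium. There Ahi1, a Joubert syndrome gene, stood out at 81.2 ± 4.53 TPM, B9d1 and Tmem237 followed at 19.5 ± 1.22 and 10.9 ± 1.31, and Mks1 was lowest at 2.04 ± 0.177.

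Of 10 genes for membrane cargo of neuronal cilia, 8 were detected. Pkd1, a polycystin, was at 35.7 and 28.0 TPM. Gpr161, a receptor that keeps Hedgehog signalling low, was at 31.6 and 30.7. Adcy3, the adenylyl cyclase used to stain neuronal cilia, was at 19.7 and 20.98. Pkd1l1, a polycystin of the embryonic node, had 2 counts in each library.

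The lists of motile parts each mixed a few well-measured genes with many near 0. Among dynein intermediate, light and docking chains 4 of 10 were detected, with Dnal1 at 41.9 ± 4.27 TPM far above Ccdc151 at 3.39 ± 0.438 and Dnaic1 at 3.35 ± 0.686, and Armc4 was at 0.13 ± 0.0141. Of 9 assembly factors 3 were, with Spag1 at 6.89 ± 0.891, Dnaaf5 at 2.88 ± 0.163 and Zmynd10 at 1.77 ± 0.509, and Pih1d3 was listed at 0 with 0 counts. For further central pair and spoke genes it was 4 of 11, led by Nme5 at 8.13 ± 1.53, Spef1 at 4.88 ± 0.467 and Spag6l at 3.50 ± 0.0636, with Spag17 lowest at 0.105 ± 0.0778. A single gene thus carried most of the first list.

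Nexin link and ruler genes, which join and space the doublets, were detected for 6 of 10. Gas8 was at 10.8 ± 1.86 TPM, Ccdc39 at 10.2 ± 2.38 and Ccdc65 at 3.62 ± 1.23, and Tcte1 was lowest at 0.29 ± 0.0141. Of the regulators of multiciliation 5 of 10 were detected, and the highest were RFX factors. Rfx3 was at 55.1 and 45.3 TPM, Rfx1 at 10.8 and 8.03, and Rfx4 at 4.13 and 3.79. Rfx3 was thus more than an order of magnitude above Foxj1 in both libraries. Cdc20b, a gene of multiciliated precursors, was at 0.00 and 0.16 TPM.

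**Figure D4:**
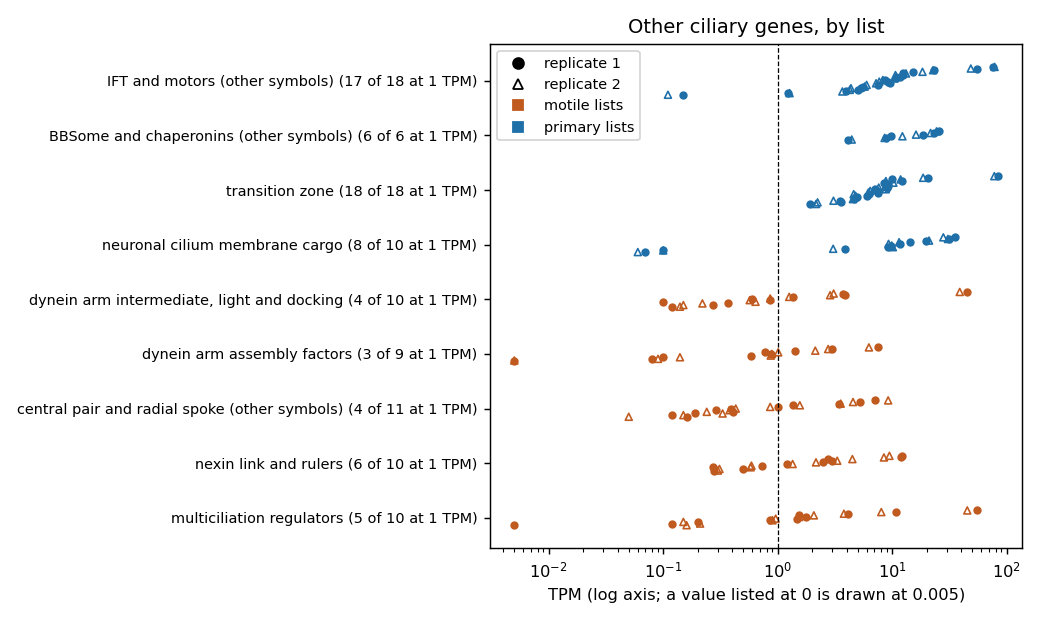
TPM of the genes of 9 further lists (log axis), with replicate 1 as filled circles, replicate 2 as open triangles, motile lists in orange and primary lists in blue. Of the primary lists 49 of 52 genes were right of the dashed line at 1 TPM in both libraries, and of the motile lists 22 of 50 were.

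Markers of the cells that carry motile cilia were present at low levels in both libraries. Of 12 ependymal markers 5 were at 1 TPM or more, and their sum was 32.1 TPM in replicate 1 and 34.9 in replicate 2. Tppp3 at 11.9 and 13.7, Rarres2 at 5.4 and 6.13 and Tm4sf1 at 5.08 and 5.23 made up most of it. Fam183b at 2.84 and 2.94 and 1110017D15Rik at 2.64 and 2.84 were also at 1 TPM or more. Ccdc153, Tmem212 and Sntn were lower, at 0.875 ± 0.120, 0.48 ± 0.0141 and 0.095 ± 0.0354. In the second quantification Ccdc153 was at 6.45 and 3.63 TPM, so its low level depends on which quantification is read. Tmem212 and Sntn were under 1 TPM in both quantifications. Ak9 was lowest at 0.09 ± 0.0283, and no ependymal marker was at 0. The motile class summed to 213 TPM in replicate 1 and 202 in replicate 2, and the part of ependymal RNA in these levels was not tested.

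Choroid plexus, whose epithelium also bears cilia, differed more between the libraries. The sum of its 10 markers was 29.5 and 62.5 TPM, most of it Ttr, at 23.5 and 55.1, with Kl at 3.41 ± 0.0354 and Sostdc1 at 1.31 ± 0.141. The other 7 were under 1 TPM in both libraries, Kcne2 was lowest at 0.14 ± 0.0424, and Folr1 was listed at 0 in replicate 1. Of the 58 motile genes 25 were higher in replicate 2 and 33 lower, and of the 23 with at least 200 counts 9 were higher and 14 lower. Whether choroid plexus RNA had a part in any of these was not tested.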

How the data were processed

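Stranded, ribosomal-RNA-reduced total RNA of 2 libraries of a single group was used. The assembly is mm10, per the labels. Notes deposited with the files name GENCODE M21 as annotation. The aligner is not given in the sources used here. The authors deposited gene and transcript tables in the RSEM format, which give expected counts and TPM, and list for every transcript what percent of the gene's TPM it takes. They also deposited a kallisto-format transcript table of estimated counts and TPM.

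TPM was used as deposited. Detection means at least 1 TPM in both libraries. Library ratios were taken where both libraries together had 200 or more expected counts, with a floor of 3 counts and exact Clopper-Pearson 95% intervals scaled to the TPM ratio. Medians of differences used log2(TPM + 1), a scale on which changes of low genes come out too small. With 1 group no test exists and no p-value is given. Scaling factors came from edgeR 4.0.16 (TMM) and DESeq2 1.42.0 in R 4.3.3, on expected counts rounded to whole numbers. Tables were handled with pandas 2.3.3 and numpy 2.4.6 in Python 3.11.15, intervals came from scipy 1.17.1, and plots from matplotlib 3.10.9. Intervals and floors cover counting error only. Exon overlap was read from GENCODE M21: 30 of the 83 genes overlap an exon of another gene, 28 of them on the opposite strand and 4 on the same strand. The setting of strand in counting is not given in the sources used here, so such levels are uncertain. Alternatives were the second table, rescaling over nuclear protein-coding genes, protein_coding transcripts only, other thresholds, minimums, pseudocounts and scalings, and each replicate alone.

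Members follow a rule on symbols that reads no level, but the rule and the lists were set with earlier results of these data known. Named genes are, per symbol family, the 4 of highest and the 1 of lowest mean TPM, with Foxj1, Arl13b, Arl3 and Tulp3. Also named are members past 2-fold, members with under 50% on protein_coding transcripts, members over 3-fold apart between tables, and of each list the 3 highest and the lowest. Other members named complete a role group and were picked after their values were seen.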

Additional observations from a re-analysis of the deposited data

How the results depend on the processing

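Of the values that answer a comparison, 52 stayed within the spread or within 1.5 times under an alternative and 26 did not. Class medians and sums of TPM with a replicate left out were bound to stay, since each of 2 values lies within their SD of the mean. All 25 primary genes stayed at 1 TPM or more in the second table and on protein_coding transcripts only, and 24 passed 2 TPM. They also did after rescaling and in each replicate alone, but these settings could not lower the count. Rescaling raises TPM, and detection already requires both libraries. Detected motile genes ranged from 16 (threshold of 2 TPM) to 31 (rescaled), with 12 of the 29 genes left without the Cfap family, whose removal takes members away. The share over all nuclear protein-coding genes (57.6%) was taken only at 1 TPM as deposited. Counts at other thresholds, scales and tables therefore have no background beside them. The motile median was 1.42 TPM in the second table, 1.71 rescaled, 0.323 on protein_coding transcripts and 0.865 without Cfap, and the motile sum 358, 486, 160 and 69.7. The primary median was 18.6, 24.6 and 8.90 in the first 3 of these settings, and its sum 663, 886 and 310.02. Motile genes past 2-fold between libraries were 1 in the second table (Cfap44), 1 with a minimum of 50 counts (Tekt4) and 11 with no minimum, beside 1.42%, 3.42% and 10.3% of all genes. The TMM, DESeq2 and spike-in settings took scaled counts, not divided by length, in place of TPM. The median log2 ratio of motile genes was -0.0030 with TMM, -0.0029 with DESeq2 size factors, -0.17 with spike-in scaling and -0.017 with a minimum of 50 counts. For primary genes it was 0.026 with TMM, 0.026 with DESeq2 and -0.16 with spike-ins. Its sign turned on counts scaled by TMM and DESeq2, as that of all genes did (0.02). The motile share on protein_coding transcripts was 80.6% to 85.1% in single replicates and the primary share 79.1% to 85.8%. The cause of these shifts was not tested, apart from the removal of Cfap. Leaving out a replicate gives no ratio between libraries. No paired analysis was possible because there is a single group. Depth limits the lowest members: Cfap77, Rsph6a and Tekt3 had under 3 counts in replicate 1 and Dnah17 in replicate 2.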
